A study of Caenorhabditis elegans with 12 samples.

Results

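K04C1.5, Y75B12B.1, mppa-1 and ldp-1 are 4 of the 8718 Caenorhabditis elegans genes measured in single oocytes, and all 4 passed the filter on low counts. They were chosen by their normalised read counts: each of the oldest oocytes sampled, at position -1, held a lower share of their transcripts than each of the youngest, at position -5. The choice was made from the values of those positions themselves, so the levels at -1 and -5 are given as a description and are not tested. The 12 libraries each came from 1 oocyte of untreated wild-type adults, with 4 oocytes at each of the positions -5, -3 and -1, counted back from the spermatheca. The series asks how the transcripts of oocytes held in meiosis I differ along the gonad and whether some come from somatic tissue.

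Oocytes of the adult hermaphrodite lie in single file in the proximal gonad, where they enlarge with cytoplasm from the shared core of the germline, take up yolk and then mature beside the spermatheca. Transcription is largely silenced as chromosomes condense as oocytes near maturation, and control of gene activity passes to the translation, tail length and stability of stored transcripts. The gene mppa-1 encodes the alpha subunit of the mitochondrial processing peptidase, the matrix enzyme that removes the targeting sequence from imported proteins and works as a pair with the beta subunit, MPPB-1. The gene ldp-1 is named for a protein of lipid droplets, the organelles that store neutral fat. K04C1.5 and Y75B12B.1 are protein-coding genes named only by their clone sequences, and no function is assigned to them here.

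The gene K04C1.5 (WBGene00010555) lies on chromosome X, 14248053 to 14249846, on the plus strand, with 1166 exonic bases in 4 blocks. Y75B12B.1 (WBGene00013567) lies on chromosome V, 15184706 to 15185878, on the plus strand, with 1042 exonic bases in 4 blocks. On the minus strand of chromosome I, mppa-1 (WBGene00022159) spans 1740647 to 1751055, with 1662 exonic bases in 5 blocks. The gene ldp-1 (WBGene00017719) lies on chromosome V, 2127535 to 2130100, on the plus strand, with 1516 exonic bases in 5 blocks. Coordinates are those of the deposited count table, and the sources used here name no genome build for it. No exonic base of K04C1.5, Y75B12B.1 or ldp-1 is shared with another gene, whereas 24 bases of mppa-1 (1.44%) are shared with tln-1, so reads there could be lost from its count.

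Library totals ran from 8358019 to 20446599 counts. Because the labels name no animals and a library is a single cell, a position counts as 1 sample and differences between positions have no test. Levels are counts relative to TMM-scaled library totals, in CPM, the usual per-library unit of read abundance, with the level of a position taken as the summed counts of its 4 oocytes over their summed scaled totals. Its 95% exact Poisson interval covers counting error only, since the kit counts PCR copies and not molecules. A CPM gives a share of the polyadenylated reads of a library, so neither copies per oocyte nor transcripts without a tail were measured. The 13 oocyte markers (such as rme-2, oma-1 and cbd-1) were all detected in every library, where they took 1.24% to 2.64% of counts. Of these markers 10 were lower at -1 than at -5, with a median log2 ratio of -0.33, where 51% of all genes were lower. In 4 of the 13 every -1 oocyte lay below every -5 oocyte, against 2.89% of all genes. Replicates 1 and 3 of position -3 detected fewer genes than any other library, 8814 and 8289 against at least 9387, and the ratios of -3 for each gene are given with and without them.

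K04C1.5 held the lowest ratio of the 4 genes between the oldest and the youngest oocytes. The oocytes at -5 stood at 319, 355, 287 and 422 CPM in replicates 1 to 4. Those at -3 stood at 279.8, 383, 229.5 and 116 CPM, and those at -1 at 32.4, 79.6, 168 and 19.7 CPM. Every -1 oocyte lay below every -5 oocyte, and the highest at -1 was separated from the lowest at -5 by a factor of 1.71. At -3 replicate 2 lay among the -5 oocytes, replicates 1 and 3 lay between the 2 positions, and replicate 4 lay below the highest -1 oocyte. The levels were 355 CPM at -5 (interval 350.3 to 361), 236 CPM at -3 (232 to 239.7) and 56.7 CPM at -1 (54.8 to 58.6). The log2 ratio of -1 over -5 was -2.65, or -3.24 without replicate 3 of oocyte -1, and the level at -1 was 15.9% of that at -5. Most of the difference lay in the last step, with a log2 ratio of -2.06 for -1 over -3 (-2.65 without the same oocyte), against -0.59 for -3 over -5. Without replicates 1 and 3 of oocyte -3 these were -1.94 and -0.71.

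Y75B12B.1 was lower in every -3 oocyte than in any at -5. Its oocytes at -5 stood at 132, 115, 128 and 62.9 CPM, those at -3 at 27.7, 28.4, 28.5 and 59.8 CPM, and those at -1 at 21.8, 9.097, 58.9 and 8.37 CPM. Replicates 1 to 3 of -3 lay within 1 CPM of each other and replicate 4 stood above them, and all 4 lay below the lowest -5 oocyte. The separation was narrow in both comparisons, since the highest oocyte at -1 (58.9 CPM) and at -3 (59.8 CPM) lay below the lowest at -5 (62.9 CPM) by factors of 1.07 and 1.05. Levels were 104 CPM at -5 (interval 102 to 107), 37.97 CPM at -3 (36.5 to 39.5) and 20.5 CPM at -1 (19.4 to 21.7). The log2 ratio was -2.35 for -1 over -5, -1.46 for -3 over -5 and -0.89 for -1 over -3. Without replicates 1 and 3 of oocyte -3 the earlier step stood at -1.12 and the later at -1.22, so which step was larger turned on those oocytes. At -1 and -3 the oocytes overlapped, with 13 of 16 pairs showing the lower value at -1.

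The peptidase gene mppa-1 stood at the same level at -3 and -5 over all oocytes, but not without the 2 of fewest detected genes. Its oocytes stood at 28.2, 44.7, 34.2 and 23.8 CPM at -5, at 40.1, 19.2, 57.6 and 12.1 CPM at -3, and at 6.28, 11.6, 17.3 and 2.99 CPM at -1. Counts were modest, from 60 reads in replicate 4 of oocyte -1 to 929 in replicate 3 of oocyte -3. The -3 oocytes were spread over the whole range, with replicate 3 above every -5 oocyte and replicate 4 below the highest -1 oocyte. Levels were 31.9 CPM at -5 (interval 30.4 to 33.4), 32.0 CPM at -3 (30.6 to 33.4) and 7.77 CPM at -1 (7.08 to 8.50). The log2 ratio of -1 over -5 was -2.04 and that of -1 over -3 was -2.04, whereas -3 over -5 stood at 0.00. That even level at -3 rested on the oocytes with the fewest detected genes: without replicates 1 and 3 of oocyte -3 the ratio of -3 over -5 was -1.11 and that of -1 over -3 was -0.93.

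The lipid droplet gene ldp-1 differed by similar amounts over both steps. Its oocytes stood at 383, 249.9, 248 and 232 CPM at -5, at 204, 301, 80.8 and 89.8 CPM at -3, and at 62.2, 78.3, 142.4 and 64.8 CPM at -1. The -3 oocytes formed a high pair, replicates 1 and 2, near or within the -5 range, and a low pair, replicates 3 and 4, within the -1 range. Levels were 275 CPM at -5 (interval 271 to 279.8), 155 CPM at -3 (152 to 158) and 77.8 CPM at -1 (75.6 to 80.1). The log2 ratio was -1.82 for -1 over -5, -0.83 for -3 over -5 and -1.00 for -1 over -3. Without replicates 1 and 3 of oocyte -3 these steps stood at -0.70 and -1.12. Both steps use the same -3 oocytes, here and for the other genes, so the division of a difference between the steps turns on where those 4 oocytes lie.

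**Figure D1:**
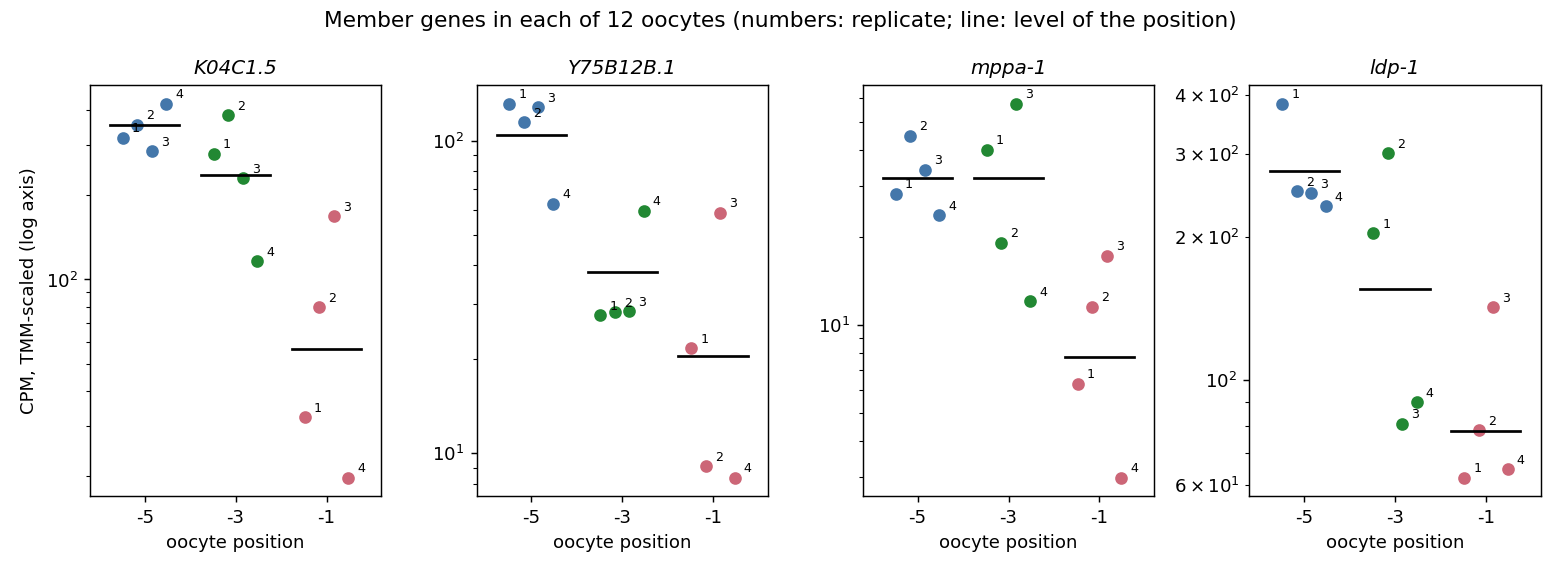
CPM of K04C1.5, Y75B12B.1, mppa-1 and ldp-1 (log axis, 1 panel per gene) in each oocyte, ordered from position -5 through -3 to -1, with points numbered by replicate and a line at the level of each position. Replicate 3 is the highest -1 oocyte in every panel, at 168, 58.9, 17.3 and 142.4 CPM.

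**Figure D2:**
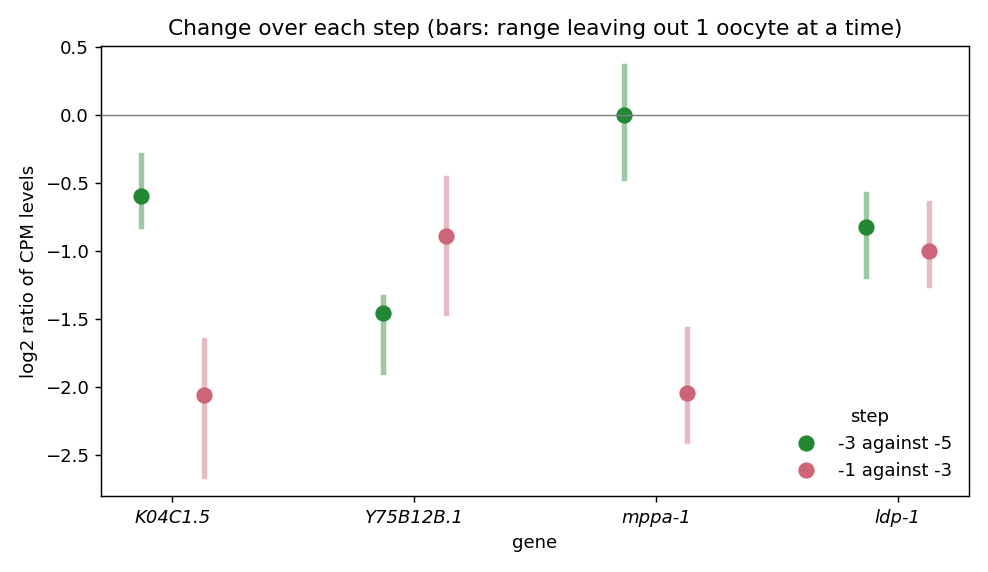
Log2 ratio of -3 over -5 (green) and of -1 over -3 (red) for each gene, with bars for the range when 1 oocyte at a time is left out. The bars do not overlap for K04C1.5 and mppa-1, whose ratios were lower over the later step (-2.06 and -2.04), and they do for Y75B12B.1 and ldp-1. With replicates 1 and 3 of oocyte -3 both left out, the order turned for mppa-1, at -1.11 over the earlier step and -0.93 over the later.

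Ordered by level, K04C1.5, Y75B12B.1 and ldp-1 stood highest at -5, then at -3, then at -1, and mppa-1 stood at nearly the same level at -3 and -5. Neighbouring positions overlapped among their oocytes for every gene except Y75B12B.1 at -3 and -5. Over all genes kept by the filter, 252 of 8718 had every -1 oocyte below every -5 oocyte, which is 2.89%. As this is the rule that chose the 4 genes, nothing follows from their meeting it. For -3 against -5 the share of genes lower in every -3 oocyte was 3.15%, and 1 of the 4 genes, Y75B12B.1, was among them. For -1 against -3 the share was 2.99%, and 0 of the 4 were among them. Levels were lower at both steps for 985 genes (11.3%), and for K04C1.5, Y75B12B.1 and ldp-1. Each step shares a position with the rule, and the steps add up to the difference that chose the genes. Being lower at a step is thus favoured in the 4 genes, and nothing follows from these counts either.

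Among 181 genes that met the rule at a mean of 20 CPM or more (3.49% of 5185), the 4 genes ranked at 1, 3, 7 and 8 by the ratio of -1 over -5. Interleaved with them were gfat-2 (-2.24), which encodes the first enzyme of the hexosamine pathway, and genes for cuticle collagens: col-119 (-2.12), col-184 (-2.304) and col-101 (-2.58). Just after ldp-1 came the collagen gene col-140 (-1.68), the Pumilio-family gene puf-3 (-1.66) and the glycogen phosphorylase gene pygl-1 (-1.59). Replicate 4 of oocyte -5 carried much of the collagen ratios: without it they stood at -1.17 for col-119, -1.00 for col-184, -1.02 for col-101 and -0.83 for col-140, at ranks 19, 36, 30 and 56 of 181. Without that oocyte Y75B12B.1, K04C1.5, mppa-1 and ldp-1 ranked at 1, 2, 3 and 5, with gfat-2 at 4 (-2.17). It was the lowest -5 oocyte for Y75B12B.1, mppa-1 and ldp-1, so their ratios were bound to be lower without it. All these ranks use the positions that chose the 4 genes, and the 181 genes were chosen with that oocyte included. They are a description, and nothing follows from them about the 4 genes. The rule was narrowly met by some genes, such as col-140, with 38.39 CPM in its highest -1 oocyte and 38.43 CPM in its lowest -5 oocyte. Over all 8718 genes, those of few counts included, 1.35%, 1.79%, 2.51% and 3.05% had a ratio below that of K04C1.5, Y75B12B.1, mppa-1 and ldp-1. K04C1.5 was 1 of 7 X-linked genes among the 181 (3.87%), while 8.08% of the 5185 genes of that level are X-linked. Of all 252 genes that met the rule 9.13% were X-linked, against 11.8% of the 8718.

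In the authors' deposited table for -1 and -5 the log2 fold changes were -2.22 for K04C1.5, -2.17 for Y75B12B.1, -1.81 for mppa-1 and -1.69 for ldp-1. For -3 and -5 the authors' deposited table gave -0.43, -1.59, 0.00 and -0.70 in the same order of genes. For -1 and -3 the authors' deposited table gave -1.76, -0.57, -1.78 and -0.97. The tables do not state which position is the numerator, and each value had the sign of the older over the younger position as computed here, apart from mppa-1 at -3 and -5, where both are 0.00 to 2 decimals. The Wald score in those tables had the opposite sign to the log2 fold change for every gene with both, 7286 of 7286 for -1 and -5, so the tables alone do not settle the direction.

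Relative to their level, the oldest oocytes differed from each other more than the youngest in all 4 genes. Across the 4 oocytes of -1 the coefficient of variation of CPM was 89.5% for K04C1.5, 96.7% for Y75B12B.1, 65.7% for mppa-1 and 43.3% for ldp-1. At -5 the same measure was 16.8%, 29.1%, 27.7% and 25.2%. On the log2(CPM + 1) scale the SD at -1 was 1.34 for K04C1.5, 1.25 for Y75B12B.1, 0.96 for mppa-1 and 0.55 for ldp-1, where the median of 5185 genes was 0.27. These SDs exceeded those of 99.5%, 99.3%, 98.3% and 87.3% of genes at -1. At -5 they exceeded those of 32.8%, 80.4%, 64.9% and 55.1%. The 5185 genes were kept by their mean over all oocytes, whereas the 4 genes were chosen for being low at -1. The part of level in these shares was not tested.

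The same oocytes were high or low in several of these genes. Replicate 3 of oocyte -1 was the highest of its position in 4 of 4 genes, and replicate 4 the lowest in 3 of 4. Among the 241 other genes meeting the rule whose -1 oocytes were not all equal, replicate 3 was the highest in 33.6%, and among all genes in 21.95%. Replicate 4 was the lowest in 33.6% of those other genes and in 20.8% of all genes. Replicate 3 had the shallowest library, at 8358019 counts, and the part of depth in its rank was not tested. At -5 replicate 4 was the highest of its position for K04C1.5 and the lowest for Y75B12B.1, mppa-1 and ldp-1. It was the lowest of its position in 28.2% of the other genes that met the rule and in 23.8% of all genes.

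Deviations from the position means gave a further description of how the genes vary together. Over the 12 oocytes, with the position means removed, the Pearson correlation of log2(CPM + 1) was 0.69 between K04C1.5 and mppa-1 and 0.67 between K04C1.5 and ldp-1. It was 0.18 between mppa-1 and ldp-1, and 0.31, 0.25 and 0.23 between Y75B12B.1 and K04C1.5, mppa-1 and ldp-1. All points share libraries and their depth, so these values describe 12 oocytes and carry no p-value.

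The genes most like each member over the 12 oocytes were sought among the 5185 whose mean reached 20 CPM, by the correlation of log2(CPM + 1). For K04C1.5 these were the glutamine synthetase gene gln-5 (Pearson r 0.95), gfat-2 (0.93) and the ATP citrate lyase gene acly-2 (0.92). The correlations within positions were 0.92, 0.92 and 0.86. For ldp-1 they were gfat-2 (0.95), the cystine transporter gene ctns-1 (0.94) and the phosphoglycerate mutase gene ipgm-1 (0.94), with 0.87, 0.85 and 0.88 within positions. For mppa-1 they were sup-36 (0.91), K04C1.5 itself (0.88) and C25D7.10 (0.86), with 0.78, 0.69 and 0.65 within positions. For Y75B12B.1 they were C39E9.12 (0.85), lin-41, an RNA-binding regulator of oocyte growth (0.83), and T01C3.3 (0.83). There the values within positions were lower, at 0.53, 0.49 and 0.35. Each of these genes also had every -1 oocyte below every -5 oocyte, which the ranking by likeness to a member favours. Taking the highest of 5185 genes favours high correlations too, also within positions.

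The gene gfat-2 was among the 3 most like both K04C1.5 and ldp-1. It stood at 1985, 1696, 2021 and 2189 CPM in the -5 oocytes, at 1272, 2196, 628 and 372 CPM in the -3 oocytes and at 262, 538, 1090.5 and 219.8 CPM in the -1 oocytes. Replicate 2 of -3 and replicate 3 of -1 were the highest of their positions, as for K04C1.5 and ldp-1. The gene sup-36, most like mppa-1, stood at 84.0, 80.5, 97.2 and 103 CPM at -5, at 67.2, 68.4, 161 and 41.9 CPM at -3 and at 29.5, 41.5, 49.9 and 27.3 CPM at -1. Its -3 oocytes had replicate 3 highest and replicate 4 lowest, as in mppa-1. Both gfat-2 and sup-36 were picked by correlation over these same oocytes. A shared order of oocytes is thus favoured, and nothing follows from it.

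**Figure D3:**
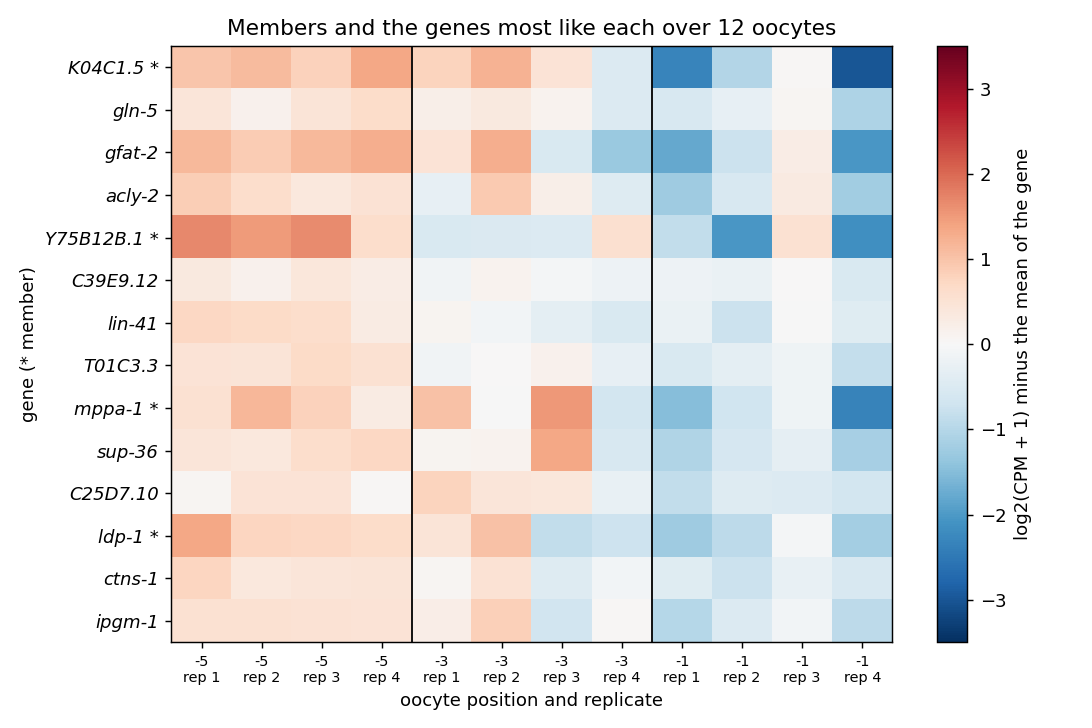
Log2(CPM + 1) minus the mean of the gene (colour) for the 4 members (starred) and the genes most like each (rows) in 12 oocytes (columns, -5 to -1, replicates 1 to 4 within each). In the rows of K04C1.5, gfat-2 and ldp-1 the -1 oocyte of replicate 3 is paler than those of replicates 1 and 4, and Y75B12B.1 is low in replicates 1 to 3 of -3.

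Other genes of mitochondrial protein import lay close to the median of all genes at -1 over -5. Of 36 names listed for import, processing and quality control of mitochondrial proteins, 32 matched a gene and 31 were measured, of which 17 were higher and 14 lower at -1 than at -5. Their median log2 ratio was 0.01, against -0.01 over all genes, where 51% were lower. Of the 31, 1 had every -1 oocyte below every -5 oocyte, against 2.89% of all genes, and it was mppa-1, chosen by that rule. Next lowest were the inner membrane channel gene timm-17B.2 (-0.56) and the small import chaperone gene tin-9.1 (-0.42). Highest were the inner membrane peptidase genes immp-1 (0.85) and immp-2 (0.73) and the import motor gene tin-44 (0.25). Levels were low for timm-17B.2 (5.62 CPM at -5 and 3.80 CPM at -1) and immp-2 (2.90 and 4.81 CPM). The oocytes of both genes overlapped between these positions. For -3 against -5 the list median was 0.00 with 15 of 31 lower, and for -1 against -3 it was 0.00 with 15 of 31 lower, where 50.8% and 48.7% of all genes were lower. With total counts in place of TMM factors, 36.6% of all genes were lower at -1 than at -3. Without replicates 1 and 3 of oocyte -3 the list had 23 of 31 lower at -3 than at -5 (median -0.19) and 9 of 31 lower at -1 than at -3 (median 0.17), where 52.5% and 47.5% of all genes were lower.

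The partner subunit gene mppb-1 stood level across positions. It had 6.89, 8.06, 9.98 and 6.41 CPM in the -5 oocytes, 6.90, 10.01, 3.78 and 6.01 CPM in the -3 oocytes and 8.42, 11.01, 6.50 and 5.53 CPM in the -1 oocytes. The ranges of the positions overlapped, and the log2 ratio of -1 over -5 was 0.01, against -2.04 for mppa-1. Complex III of the respiratory chain holds core subunits related in sequence to the peptidase. Over all genes 51% were lower at -1 than at -5, with a median of -0.01. Of 7 genes listed for this complex 5 were higher and 2 lower at -1, with a median of 0.06. The lowest were the cytochrome c1 gene cyc-1 (-0.27), the core subunit gene ucr-2.3 (-0.05) and ucr-1 (0.04), and the highest ucr-2.2 (0.61), ucr-2.1 (0.31) and ucr-11 (0.20).

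Of 29 listed genes of lipid droplets and fat storage 24 were measured, with 8 higher and 16 lower at -1 than at -5 and a median log2 ratio of -0.19, against -0.01 over all genes, of which 51% were lower. The 16 include ldp-1, chosen for being lower, and the difference of the list from all genes was not tested. Of the 24, 1 had every -1 oocyte below every -5 oocyte, against 2.89% of all genes, and it was ldp-1, chosen by that rule. The fatty acid synthase gene fasn-1 had a lower ratio (-1.91), but its oocytes overlapped, from 1.73 to 18.7 CPM at -1 against 9.33 to 48.6 CPM at -5. The desaturase gene fat-6 stood at -1.03 with at most 7.57 CPM at -1 and 8.87 CPM at -5. At the other end were the lipogenic transcription factor gene sbp-1 (0.51), dhs-9 (0.49) and the acyltransferase gene acl-4 (0.35). Levels were low for sbp-1 (2.58 CPM at -5 and 3.67 CPM at -1) and dhs-9 (6.01 and 8.44 CPM), and their oocytes overlapped. The perilipin gene plin-1, which encodes a coat protein of lipid droplets, stood at 547 to 578 CPM in the -1 oocytes and 494 to 798 CPM in the -5 oocytes. For -3 against -5 the list median was -0.24, with 20 of 24 lower, and for -1 against -3 it was 0.09, with 9 of 24 lower, where 50.8% and 48.7% of all genes were lower. Without replicates 1 and 3 of oocyte -3 the list stood at -0.16 with 14 of 24 lower at -3 than at -5, and at -0.07 with 14 of 24 lower at -1 than at -3.

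**Figure D4:**
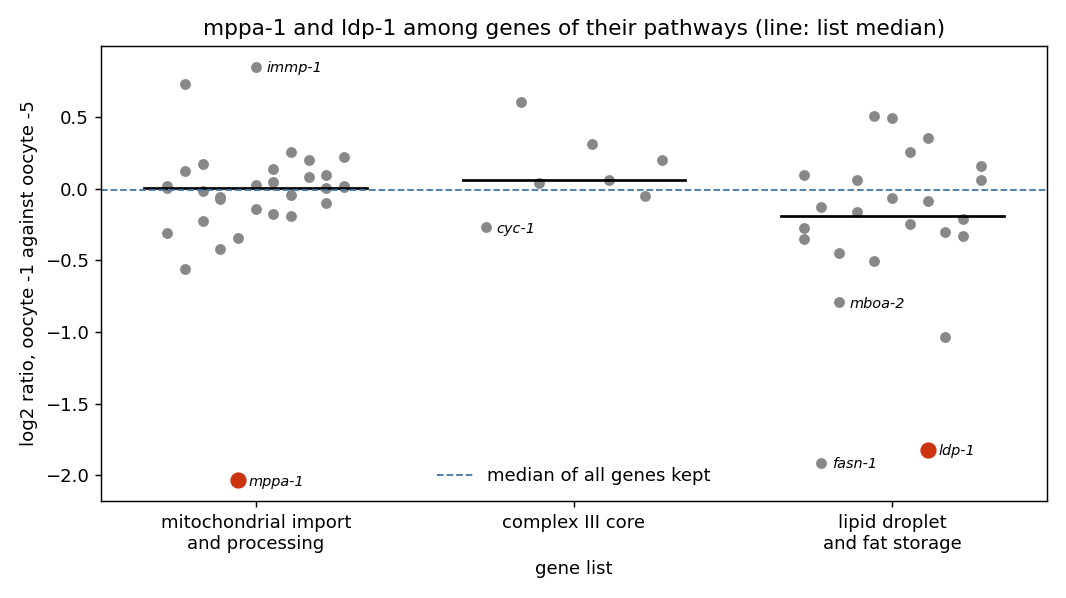
Log2 ratio of -1 over -5 for each measured gene of 3 lists (points, spread sideways for legibility), with the members in red, a line at each list median and a dashed line at the median of all genes. The gene mppa-1 lies at -2.04 where the rest of its list lies between -0.56 and 0.85, and ldp-1 lies at -1.82 beside fasn-1 at -1.91.

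Of the neighbouring genes on either side of each member, E02H4.6, Y75B12B.3, atg-5, Y71G12B.10 and F22F7.7 passed the filter. None of these had every -1 oocyte below every -5 oocyte. As only 2.89% of all genes did, nothing follows from so few neighbours. Downstream of K04C1.5 by 666 bases, E02H4.6 stood at 62.1 to 104 CPM in the -1 oocytes and 50.7 to 99.6 CPM in the -5 oocytes. Its upstream neighbour, the myosin light chain gene mlc-6, had 8 counts over all 12 libraries. On either side of mppa-1, Y71G12B.10 at 426 bases had a log2 ratio of 0.36 and the autophagy gene atg-5 at 25079 bases 0.16. Only protein-coding genes that do not overlap a member were taken as neighbours. The gene tln-1, which overlaps mppa-1, was therefore left out, and its level is not given here. Beside ldp-1, F22F7.7 had a log2 ratio of 0.80 and F22F7.2 had 61 counts in all. Y75B12B.3 ends 13 bases beyond Y75B12B.1 on the other strand and stood at 0.0910 to 8.42 CPM at -1 against 0.711 to 13.6 CPM at -5. The counting used no strand, so reads of this close pair could be exchanged only where transcripts run past the annotated ends. The upstream neighbour of Y75B12B.1, the F-box gene fbxa-84, had no counts.

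Several lists of markers of other tissues differed with position in their share of counts. Over all genes, 4272 of 8718 were higher at -1 than at -5 and 51% were lower. Of 13 hypodermis markers 8 were measured and 8 of 8 were lower at -1 than at -5, while dpy-7, rol-6, bli-1 and dpy-13 were at 0 in all 12 libraries. The list took 0.00947% to 0.0132% of counts in the -1 oocytes and 0.0172% to 0.0896% in the -5 oocytes. The highest share of this list, 0.0896%, was in replicate 4 of oocyte -5. Without that oocyte the ratios of -1 over -5 were -2.51 for K04C1.5, -2.61 for Y75B12B.1, -2.21 for mppa-1 and -1.93 for ldp-1. As it was the lowest -5 oocyte for Y75B12B.1, mppa-1 and ldp-1, their ratios were bound to be lower without it. Sheath and spermatheca markers took 0.0243% to 0.0444% of counts at -1 and 0.0229% to 0.115% at -5, with 3 of 7 measured higher at -1. The upper end at -5 rested largely on inx-8, at 10.7 to 673 CPM in those oocytes. Muscle markers were higher at -1 for 11 of 13, at 0.0885% to 0.169% of counts, against 0.0438% to 0.112% at -5. The share of muscle markers rested largely on the myosin gene unc-54, at 832 CPM at -1 against 524 CPM at -5. Its oocytes overlapped, from 619 to 1010 CPM at -1 and from 265 to 760 CPM at -5. Intestine markers were higher at -1 for 6 of 10, at 0.00600% to 0.0330% of counts against 0.00996% to 0.0289% at -5. The numbers higher among sheath and spermatheca markers and among intestine markers lay near the share over all genes. For sheath and spermatheca that number hides large differences between genes. Lower at -1 were inx-9 (-3.35), lim-7 (-2.54), inx-8 (-2.02) and fln-1 (-0.48). Higher were ceh-18 (1.48), nmy-1 (0.39) and par-3 (0.33). Of these lim-7 reached at most 3.64 CPM and ceh-18 at most 2.92 CPM in any oocyte. Sperm markers took at most 0.00221% of counts in any library, and 0 of 20 passed the filter. The part of RNA from these tissues in the levels of the 4 genes was not tested.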

How the data were processed

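The authors deposited whole read counts per gene for 12 single oocytes, with no normalization. Libraries were made with the SMART-seq v4 3' DE kit, per the labels' protocols, which reads 3' ends. Per the submitters' processing notes the tools were FastQC 0.11.5, cutadapt 1.18, STAR and featureCounts 1.5.3. Per the file headers the counting step was featureCounts 1.6.4 on the WormBase WS271 annotation, without a strand option. The authors' deposited DESeq2 1.32.0 tables hold each gene's mean signal, log2 fold change, standard error, Wald score and p-values, and only the log2 fold changes were used.

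From the 46903 genes, edgeR 4.0.16 (R 4.3.3) kept 8718 with its default filter and gave TMM factors. Symbols were found for 44018 identifiers. Ratios used a floor of 3 counts over a position. The ratio and separation steps ran in Python 3.11.15 and were tested on simulated data. Alternatives were DESeq2 1.42.0 size factors, total counts, no filter, a mean of log2(CPM + 1), thinning to the smallest library, and leaving out oocytes. No test between positions was made, since each library is 1 cell and no animals are named. Library pairs of a position differed beyond the sampling noise of independent reads, with a chi-square of at least 45.0 per degree of freedom. PCR copies were counted as separate reads, and their part in this value was not tested. A count of 3 in a library equals 0.147 to 0.359 CPM.

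The members and gene lists were chosen with earlier results of these data known. Named beside the members were the 3 genes of highest correlation with each, their neighbours, the 3 highest and lowest of each pathway list and the genes ranked next to the members. No sequences were used here.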

Additional observations from a re-analysis of the deposited data

Results flagged for a closer look

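In 75 groups of 4 oocytes the highest or lowest value was set against the spread of the others, and 5 groups had 1 oocyte far from the rest, where chance would give about 1 in 20. Y75B12B.1 stood at 59.8 CPM in replicate 4 of oocyte -3, against 27.7 to 28.5 CPM in the other 3. The gene ldp-1 stood at 383 CPM in replicate 1 of oocyte -5, against 232 to 249.9 CPM in the other 3, and without that oocyte its ratio of -1 over -5 was -1.64. Sheath and spermatheca markers took 0.115% and hypodermis markers 0.0896% of the counts of replicate 4 of oocyte -5. The sheath and spermatheca share there rested largely on 1 gene, inx-8, which ran from 10.7 to 673 CPM among the -5 oocytes. Sperm markers took 0.000447% of the counts of replicate 2 of oocyte -5, which is 61 counts.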

How the results depend on the processing

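Scaling, filtering, averaging and thinning left 60 of 60 alternative ratios within the spread between oocytes of the ratio reported, as did leaving out 1 oocyte for 96 of 96. Leaving out both -3 oocytes of fewest detected genes did so for 7 of 8, the exception being mppa-1 at -3 over -5, at -1.11. That spread joins the SDs of log2 CPM of the 2 positions (root of summed squares), and ran from 0.64 to 1.55. For Y75B12B.1 at -1 over -3 it was 1.42, wider than the ratio of -0.89 itself. Staying within this spread is therefore a weak check. Further alternatives, chosen after seeing the data, are given beside the gene ranks and the pathway lists. Every -1 oocyte stayed below every -5 oocyte for all 4 genes under each scaling and after thinning, though Y75B12B.1 came as close as 58.9 CPM at -1 against 61.6 CPM at -5 after thinning. Scaling by total counts alone put the median log2 ratio of all genes at 0.07 for -1 over -5, -0.13 for -3 over -5 and 0.21 for -1 over -3, so counts of list members higher or lower hold relative to TMM scaling. The count of genes lower in every older oocyte was 164 for -1 against -5 with total counts and 177 for -3 against -5 with a mean of at least 20 CPM; the cause of the first was not tested, and the second tests fewer genes. Leaving out 1 oocyte leaves fewer values to separate, and gave 343 to 404 genes for -1 against -5, 358 to 586 for -3 against -5 and 338 to 575 for -1 against -3. Leaving out 1 oocyte gave ratios of -1 over -5 from -3.24 to -2.24 for K04C1.5, -2.91 to -1.98 for Y75B12B.1, -2.38 to -1.65 for mppa-1 and -2.05 to -1.64 for ldp-1. No paired analysis was made, because the shared replicate numbers are not said to mark shared animals. Between oocytes of the same number at 2 positions, deviations from the position means had correlations from -0.14 to 0.14 over the genes kept. Depth limits mppa-1 most, at 60 to 154 counts in the -1 oocytes.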
